A study of Mus musculus with 27 samples.

Results

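Ffar2, Rflnb, Ier5l and Serpinb7 were described as 4 of the 35604 genes listed for mouse B cells cultured with the cytokine IL-21. They were chosen on these data, for a large excess with IL-21 after 24 h of culture without IL-4 or for growth of that excess after 6 h, so their values in those cultures are given as a description and carry no test. The cells were wild type primary B cells from mouse spleen, in 9 groups of 3 libraries (strain, age and sex are not stated in the sources used here). One group was naive. The other groups were cultured for 6 h or 24 h with an anti-CD40 antibody (clone HM40-3, 1 µg/mL), which stands in for contact help from T cells, and received nothing further, IL-4 (12.5 ng/mL), IL-21 (50 ng/mL) or both cytokines. Every cultured group thus carried anti-CD40, and IL-21 without it was not analysed here. The labels do not say whether replicates came from separate mice or cultures, so p-values measure the spread between these libraries.

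IL-21 is made mainly by follicular helper T cells and binds a receptor of IL-21R and the common gamma chain, which signals through JAK1 and JAK3, chiefly to the transcription factor STAT3. IL-4 shares the common gamma chain but signals through STAT6, and B cells in a germinal centre can receive both. Such cytokines switch on feedback genes within hours, and other targets follow later, as the cells divide or differentiate.

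The 4 genes encode unrelated proteins. Ffar2 (ENSMUSG00000051314, GRCm38 chr7:30818348-30823775, minus strand) encodes FFAR2, a G protein-coupled receptor for acetate, propionate and other short-chain fatty acids that gut bacteria produce. Rflnb (ENSMUSG00000020846, chr11:76019194-76027782, minus strand) encodes refilin B, which binds filamins, the crosslinkers of actin filaments. Ier5l (ENSMUSG00000089762, chr2:30471537-30474219, minus strand) encodes a relative of IER5, an immediate early protein that acts with the phosphatase PP2A. Serpinb7 (ENSMUSG00000067001, chr1:107399655-107452689, plus strand) encodes a clade B serpin, a family of mostly intracellular protease inhibitors. All 4 were protein-coding in GENCODE, none shared exon bases with another annotated gene, and all 4 were among the 12147 genes that reached 1 TPM in at least 3 libraries and were tested.

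The 250 bases before the RefSeq start of each gene are shown because the 4 genes shared a high level with IL-21 at 24 h but sat in promoters of very different make-up. They are from GRCm38.p6, with 1 of the 4 Ffar2 starts shown and capitals marking the motif matches described next.
Ffar2 (chr7:30823776-30824025, minus strand): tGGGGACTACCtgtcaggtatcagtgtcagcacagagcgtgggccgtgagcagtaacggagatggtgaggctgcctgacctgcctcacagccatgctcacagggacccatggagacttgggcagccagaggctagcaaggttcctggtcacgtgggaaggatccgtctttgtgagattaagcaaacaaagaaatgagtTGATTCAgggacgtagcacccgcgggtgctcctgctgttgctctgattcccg
Rflnb (chr11:76027783-76028032, minus strand): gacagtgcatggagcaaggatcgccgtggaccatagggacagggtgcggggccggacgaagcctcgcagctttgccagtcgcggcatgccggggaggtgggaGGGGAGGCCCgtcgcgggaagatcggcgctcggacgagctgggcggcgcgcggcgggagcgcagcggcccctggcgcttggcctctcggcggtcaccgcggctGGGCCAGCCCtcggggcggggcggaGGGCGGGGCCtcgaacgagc
Ier5l (chr2:30474200-30474449, minus strand): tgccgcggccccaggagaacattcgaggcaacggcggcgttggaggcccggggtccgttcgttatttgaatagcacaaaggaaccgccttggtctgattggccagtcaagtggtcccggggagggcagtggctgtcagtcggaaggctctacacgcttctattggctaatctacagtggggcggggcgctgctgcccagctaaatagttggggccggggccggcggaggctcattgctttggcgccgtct
Serpinb7 (chr1:107422439-107422688, plus strand): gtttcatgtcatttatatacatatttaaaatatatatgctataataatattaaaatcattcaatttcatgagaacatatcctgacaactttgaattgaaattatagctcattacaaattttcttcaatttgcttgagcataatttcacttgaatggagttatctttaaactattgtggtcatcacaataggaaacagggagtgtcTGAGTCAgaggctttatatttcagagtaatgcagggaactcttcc
Windows of 300 bases (these and the 50 bases after the start) were searched on both strands for 5 motifs. The AP-1 motif TGANTCA was at 52 bases before the shown start of Ffar2 and 45 bases before that of Serpinb7, and 7.81% of 32851 RefSeq windows hold it. The windows of the other Ffar2 starts held no AP-1 match. The RefSeq start used for Serpinb7 lies within the GENCODE span given above, not at its first base. An NF-kB form (GGG, any 5 bases, then CC) matched once in Ffar2, 249 bases before the start, and 4 times in Rflnb, 1 of them after the start, and 50.8% of windows hold it. A STAT motif (TTCNNNGAA, 8.30% of windows), a T-box motif (AGGTGTGA, 1.28%) and an E-box (CAGGTG, 20.2%) were in none of these 4 windows. For STAT only this spacing between TTC and GAA was searched. Wider spacings were not, so their absence cannot be read from this search. The E-box shares its letters AGGTG with the T-box motif, so the searches overlap in part. GC content was 77% in Rflnb, 63.7% in Ier5l, 57% in Ffar2 and 31.7% in Serpinb7, against a median of 52.7% over the windows. Rflnb held 44 CpG dinucleotides and Serpinb7 none, where 90% of windows hold 0 to 37. These matches are letters in a window, not measured sites.

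Levels are in TPM, a unit of transcript abundance that is scaled within each library and corrected for transcript length. Listed genes summed to between 766384 and 825365 TPM, and depth cannot be read from them. All 8 B cell markers were present in every group, with sums between 451 and 4374 TPM, while 12 neutrophil markers summed to at most 1.04 TPM in any library. Monocyte and macrophage markers summed to 73.9 to 105 TPM in naive cells and 1.84 to 13.5 TPM in the cultures. Among libraries, replicate 1 of naive cells had 5.50% mitochondrial transcripts against 12.7% and 13.5% in the other two. Replicate 1 with IL-4 at 24 h had 7.89% against 11.6% and 11.0%, and the tests on the 4 genes were also run without both. Low shares were not particular to these 2 libraries. Replicate 3 had 6.91% with IL-4 at 6 h (10.2% and 10.6% in the others) and 7.27% with IL-21 at 6 h (10.9% and 10.2%). Libraries with IL-21 at 24 h had between 6.56% and 8.14%, with or without IL-4.

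In naive cells Ffar2 was at 15.4, 11.4 and 8.43 TPM. With anti-CD40 alone it was at 0.193, 0.125 and 0.110 TPM at 6 h and 0.646, 1.50 and 1.10 TPM at 24 h. The receptor transcript was thus lower in every culture with anti-CD40 alone than in any naive library, with a difference in log2(TPM + 1) of -3.44 ± 0.22 (SE) at 6 h and -2.59 ± 0.22 at 24 h. With IL-21 it was at 4.17, 3.45 and 4.36 TPM at 6 h, and at 68.5, 77.0 and 61.8 TPM at 24 h. All 3 late libraries lay above every naive library, with a mean 5.90 times the naive one. The IL-21 effect was 2.12 ± 0.22 at 6 h and 5.09 ± 0.22 at 24 h, which ranked 2 of 12147 genes.

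Rflnb was at 17.2, 11.7 and 10.4 TPM in naive cells, close to Ffar2. With anti-CD40 alone it was at 0.269, 0.382 and 0.459 TPM at 6 h and 0.174, 0.517 and 0.254 TPM at 24 h. Refilin B transcripts were scarce at both times, and those 2 groups overlapped. IL-21 gave 1.11, 1.03 and 1.42 TPM at 6 h, and 24.5, 29.7 and 23.0 TPM at 24 h. At 6 h the 3 libraries with IL-21 were all above the 3 without it, with means 3.20 times apart, although the low values made the difference in log2(TPM + 1) only 0.67 ± 0.28. At 24 h it was 4.35 ± 0.28 (rank 7), with means 81.8 times apart. Its late libraries were all above the naive range, with a mean 1.97 times that of naive cells.

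Ier5l was low in naive cells, at 1.79, 0.978 and 1.22 TPM, and at 2.79, 1.37 and 2.06 TPM after 6 h with anti-CD40 alone. At 24 h with anti-CD40 alone it was at 0.377, 0.223 and 0.215 TPM, below every naive library. With IL-21 it was at 21.6, 13.1 and 19.2 TPM by 6 h and 42.3, 36.8 and 26.5 TPM at 24 h. The IL-21 effect was 2.62 ± 0.24 at 6 h and 4.81 ± 0.24 at 24 h (rank 5). At 6 h that was above the effect on Ffar2 with a pseudocount of 1, but with a pseudocount of 0.1 it was 3.08 against 4.08 for Ffar2, and mean TPM with IL-21 was 8.67 times the control for Ier5l and 28.0 times for Ffar2. Its mean level at 6 h with IL-21 was already 51.1% of that at 24 h, against 5.78% for Ffar2, 4.61% for Rflnb and 8.76% for Serpinb7. Part of the growth of its effect was in the control, which was lower at 24 h than at 6 h.

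Serpinb7 had the lowest level of the 4 with IL-21 at 24 h. It was at 2.27, 3.04 and 3.24 TPM in naive cells, at 2.37, 2.04 and 1.19 TPM with anti-CD40 alone at 6 h, and at 0.252, 0.404 and 0.348 TPM at 24 h. With IL-21 it was at 0.792, 0.727 and 0.598 TPM at 6 h, below all 3 controls, and at 6.79, 6.80 and 10.6 TPM at 24 h, above every other library. The effect of IL-21 went from -0.73 ± 0.18 at 6 h to 2.74 ± 0.18 at 24 h (rank 53), and the change between the times, 3.47 ± 0.26, ranked 10. As for Ier5l, part of this change was in the control, which was lower at 24 h than at 6 h. Ranks of that change were 7 for Rflnb (3.67 ± 0.40), 16 for Ffar2 (2.97 ± 0.31) and 87 for Ier5l (2.18 ± 0.34). With a pseudocount of 0.1 the changes were 5.46 for Serpinb7, 4.58 for Rflnb, 3.49 for Ier5l and 1.85 for Ffar2. The rule used this change and the IL-21 effect at 24 h. For the effect at 24 h, 17.8% of tested genes were called higher (adjusted p below 0.05 by limma) and 24.2% in either direction. For the change, 4.44% were called in either direction. Nothing is read from where the 4 genes stand.

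**Figure D1:**
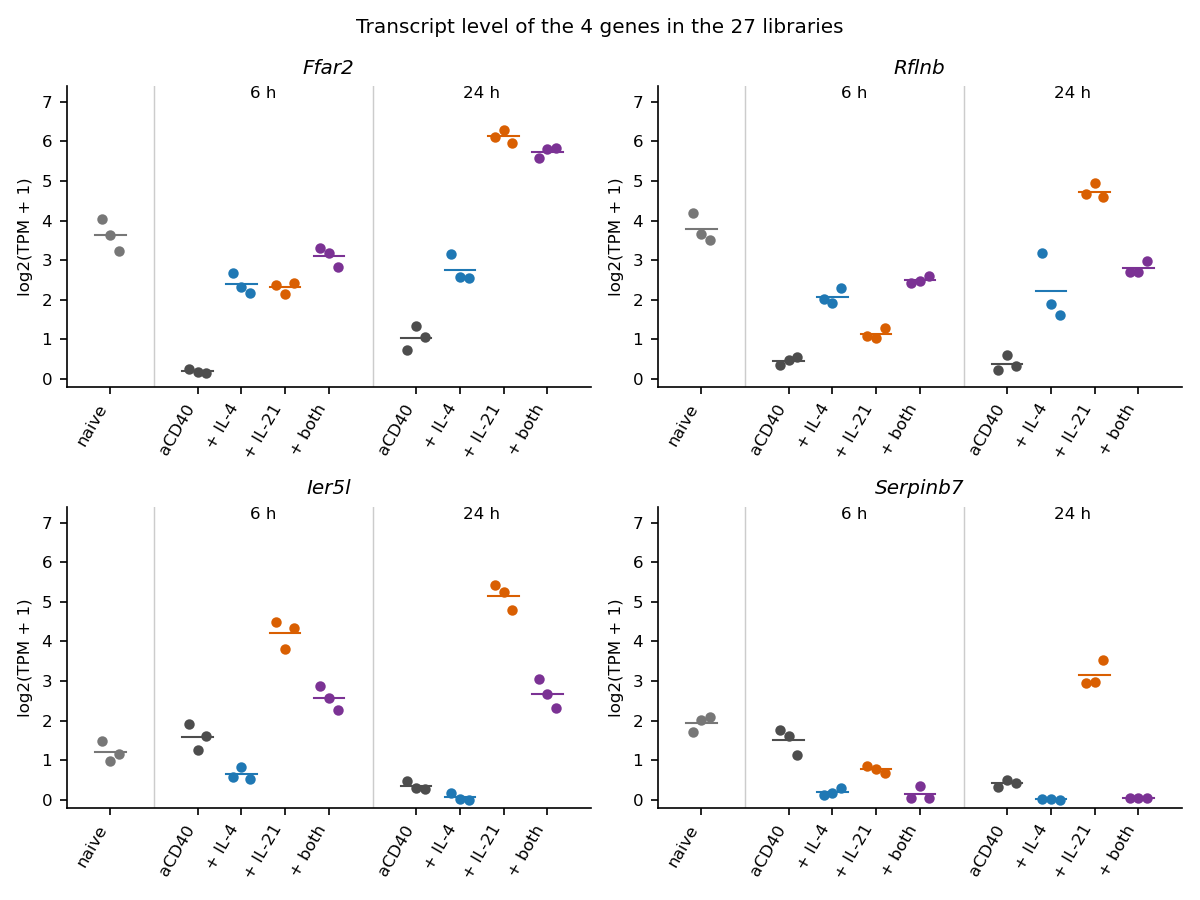
Transcript level of Ffar2, Rflnb, Ier5l and Serpinb7 as log2(TPM + 1) in each of the 27 libraries (points, replicates 1 to 3 from left to right) with group means (lines), for naive cells and for cultures given anti-CD40 (aCD40), to which IL-4, IL-21 or both were added, at 6 h and 24 h. Each gene is highest with IL-21 and no IL-4 at 24 h, and with both cytokines at 24 h Ffar2 is near that level while Serpinb7 is near 0.

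In bulk libraries, a difference in transcripts per cell and a difference in the number of cells of a type cannot be told apart. In the 24 h cultures without IL-4, monocyte and macrophage markers summed to 7.06 to 10.7 TPM with IL-21 and 4.06 to 5.41 TPM without it, 10 of 12 above 0 in each group. NK cell markers summed to 2.01 to 2.36 against 0.919 to 1.07 TPM. B cell markers summed to 1499 to 2053 TPM with IL-21 and 3400 to 3775 TPM without it. Plasma cell markers summed to 168 to 233 TPM with IL-21 and 415 to 461 TPM without it, with no overlap, 1 of 6 at 0 in each group, and of the 5 tested 3 were called higher and 2 lower (2 and 2 after rescaling). Neutrophils are known for high FFAR2, and their 12 markers summed to at most 0.274 TPM in either group. The part of these cells in the differences was not tested.

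The libraries with IL-4 were not used to choose the genes, and in them the 4 genes went separate ways. Ffar2 and Ier5l rose with IL-21 at 24 h, while Rflnb and Serpinb7 did not pass the test. Thus 2 of 4 rose, where 21.8% of the 12147 tested genes were called higher and 24.2% in either direction. That background rested much on replicate 1 with IL-4: 2941 genes were called with it and 5632 without it, and between 959 and 1604 without any 1 of the other libraries with IL-4 alone or of replicates 2 and 3 with both cytokines.

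Ffar2 was at 7.89, 4.93 and 4.86 TPM after 24 h with IL-4, and at 47.2, 54.9 and 55.5 TPM once IL-21 was added. Every library with both cytokines was thus far above every library with IL-4 alone. The gene rose by 2.98 ± 0.22 on the log2(TPM + 1) scale (adjusted p = 1.73e-09, limma), a 7.90-fold change of TPM + 1 with a 95% interval of 5.74 to 10.9. It was 3.18 without the 2 replicate 1 libraries (adjusted p = 5.38e-10). Its mean with both cytokines was 76.0% of that with IL-21 alone and 4.48 times the naive mean.

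Ier5l was at 0.121, 0.0104 and 0 TPM with IL-4 at 24 h, hardly detected, and at 7.24, 5.35 and 3.97 TPM with both cytokines. All 3 libraries with IL-21 were above the 3 without it, and the gene rose by 2.61 ± 0.24 (adjusted p = 5.87e-08), and by 2.67 without the 2 replicate 1 libraries (adjusted p = 2.28e-07). The level it reached was nonetheless 15.7% of that with IL-21 alone.

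Rflnb was at 8.07, 2.71 and 2.06 TPM with IL-4 and at 5.50, 5.46 and 6.95 TPM with both. The groups overlapped only through replicate 1 with IL-4, and the difference, 0.57 ± 0.28, was not called (adjusted p = 0.139, interval -0.01 to 1.15). Without that library it was 1.04 and was called (adjusted p = 0.000398), and it was 1.04 (adjusted p = 0.000111) when replicate 1 of naive cells was left out with it. Its mean with both cytokines was 23.2% of that with IL-21 alone.

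Serpinb7 was at 0.00786, 0.0155 and 0 TPM with IL-4 at 24 h and between 0.0273 and 0.0345 TPM with both cytokines. The groups did not overlap, but the serpin was close to 0 in all 6 libraries, against 6.79 to 10.6 TPM with IL-21 alone, so the level with both was 0.376% of that with IL-21. The IL-21 effect was 0.03 ± 0.18 (adjusted p = 0.917), with an interval from -0.34 to 0.41. At such levels log2(TPM + 1) compresses ratios, and the interval speaks only of that scale.

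Set against the effects without IL-4, the IL-21 effect with IL-4 at 24 h was smaller by 2.11 ± 0.31 for Ffar2, 3.78 ± 0.40 for Rflnb, 2.19 ± 0.34 for Ier5l and 2.71 ± 0.26 for Serpinb7, values that involve the libraries that chose the genes and carry no test. The sizes are on the log2(TPM + 1) scale and depended on it. With a pseudocount of 0.1 the difference between the 2 effects was -2.77 ± 0.40 for Ffar2, -5.32 ± 0.54 for Rflnb, -1.23 ± 0.52 for Ier5l and -3.94 ± 0.58 for Serpinb7. For Ier5l, mean TPM at 24 h was 130 times the control without IL-4 and 126 times with it, the latter over a control of 0.0438 TPM with 1 library at 0, so the 2 ratios were close while the levels reached were not. The differences were made up differently. For Ffar2 and Rflnb, IL-4 went with a higher level in the absence of IL-21 at 24 h, by 1.72 ± 0.22 and 1.84 ± 0.28 (1.52 and 1.37 without the 2 replicate 1 libraries). For Ier5l and Serpinb7 that difference was -0.28 ± 0.24 and -0.40 ± 0.18. In the presence of IL-21 at 24 h, IL-4 went with lower levels of all 4. The differences were -0.39 ± 0.22 for Ffar2, -1.94 ± 0.28 for Rflnb, -2.48 ± 0.24 for Ier5l and -3.11 ± 0.18 for Serpinb7. At 24 h IL-4 thus went with a higher level in the absence of IL-21 for Ffar2 and Rflnb. With IL-21 present at 24 h the level was lower for all 4, least so for Ffar2, with a 95% interval of -0.85 to 0.07. At 6 h with IL-21 present, IL-4 went with higher levels of Ffar2 (0.79 ± 0.22) and Rflnb (1.37 ± 0.28), with no overlap of libraries. Levels of Ier5l (-1.65 ± 0.24) and Serpinb7 (-0.62 ± 0.18) were then lower.

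**Figure D2:**
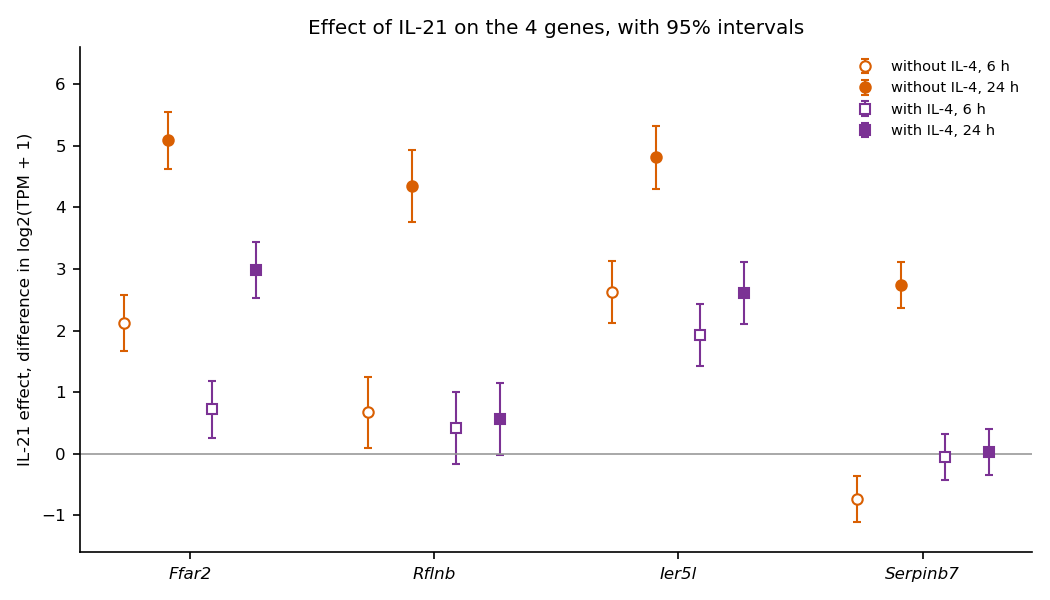
Effect of IL-21 on each gene, as the difference in mean log2(TPM + 1) between cultures with and without IL-21, in the absence (circles) and presence (squares) of IL-4 at 6 h (open) and 24 h (filled), with 95% intervals from limma, 3 libraries a group. Effects without IL-4 at 24 h lie between 2.74 and 5.09, and with IL-4 those of Rflnb and Serpinb7 have intervals that reach 0.

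In the 24 h cultures with IL-4, monocyte and macrophage markers summed to 1.84 to 2.72 TPM with IL-21 and 2.00 to 3.12 TPM without it, 11 of 12 above 0 in each group. Neutrophil markers summed to 0.439 to 0.735 against 0 to 0.0416 TPM, with 8 of 12 at 0 in the first group and S100a8 and S100a9 at 0 in both. B cell markers summed to 1880 to 1952 against 1847 to 2455 TPM. Plasma cell markers summed to 352 to 360 TPM with IL-21 and 399 to 504 TPM without it, again with no overlap, 1 of 6 at 0 in each group, and of the 5 tested 3 were called higher and 1 lower (2 and 2 after rescaling). The part of these cells in the differences was not tested here either. Scaling mattered for small values: the median of all tested genes was 0.38 as listed and -0.01 after median-of-ratios rescaling, and calls went from 90.1% higher to 46.3% higher. After rescaling Ffar2 was at 2.46 (adjusted p = 6.02e-10), Ier5l at 2.44, Rflnb at 0.12 and Serpinb7 at 0.02, and the same 2 genes were called.

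At 6 h with IL-4, Ier5l alone rose, 1 of 4 genes where 1.25% of tested genes were called higher. It was at 6.34, 4.96 and 3.80 TPM with both cytokines and 0.489, 0.787 and 0.427 TPM with IL-4, and no libraries overlapped (1.93 ± 0.24, adjusted p = 1.79e-05). Ffar2 was at 8.87, 8.11 and 6.15 TPM against 5.42, 3.97 and 3.47 TPM, also without overlap, but missed the threshold (0.72 ± 0.22, adjusted p = 0.102). It was called after rescaling (0.66, adjusted p = 0.0236) and without the replicate 1 libraries of naive cells and of IL-4 at 24 h (0.72, adjusted p = 0.0209). Rflnb was at 4.31, 4.54 and 5.03 TPM with both and 3.02, 2.79 and 3.92 TPM with IL-4 (0.42 ± 0.28, adjusted p = 0.742). Serpinb7 was at 0.0323, 0.279 and 0.0289 TPM against 0.0858, 0.134 and 0.222 TPM, and the groups overlapped (-0.05 ± 0.18, adjusted p = 0.975).

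The question of lateness was asked again in the cultures with IL-4, as the change of the IL-21 effect between 6 h and 24 h. Ffar2 was the 1 gene of the 4 whose effect grew, by 2.26 ± 0.31 (adjusted p = 9.48e-05), where 3.66% of tested genes were called higher. That of Ier5l was larger by 0.68 ± 0.34 (adjusted p = 0.275), with an interval from -0.03 to 1.40. Its call depended on the treatment of values near 0: with a pseudocount of 0.1 in place of 1 the change was 2.39 (adjusted p = 0.011). The changes of Rflnb (0.15 ± 0.40, adjusted p = 0.854) and Serpinb7 (0.08 ± 0.26, adjusted p = 0.878) were not called, and that of Rflnb was -0.23 after rescaling.

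In time alone, Ffar2 rose by 2.63 ± 0.22 from 6 h to 24 h with both cytokines (adjusted p = 7.95e-09), the only one of the 4 to do so, where 20.8% of tested genes were called higher. Rflnb (0.30 ± 0.28), Ier5l (0.10 ± 0.24) and Serpinb7 (-0.10 ± 0.18) were not called, and Ier5l was at -0.03 after rescaling. With IL-4 and no IL-21, none of the 4 genes was called by limma, against 25.4% of all tested genes, and 1, Ier5l, had an unadjusted p under 0.05 (0.0259, -0.58 ± 0.24, adjusted p = 0.0837). After rescaling Ier5l was called lower (-0.59, adjusted p = 0.0341), as it was with a pseudocount of 0.1 (-2.27, adjusted p = 0.000133), with which Serpinb7 was called too (-1.16, adjusted p = 0.0396). Ffar2, at 0.37 ± 0.22, was called after rescaling (0.66, adjusted p = 0.00472).

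Against naive cells, most of the 4 genes were lower in cultures that held IL-4 beside anti-CD40. At 6 h Ffar2 fell by 1.25 ± 0.22 (adjusted p = 9.52e-05), Rflnb by 1.71 ± 0.28 (adjusted p = 3.39e-05) and Serpinb7 by 1.74 ± 0.18 (adjusted p = 6.48e-08), so that 3 of 4 fell where 17.4% of tested genes did. Ier5l was at -0.56 ± 0.24 (adjusted p = 0.0731), and was called after rescaling (-0.67, adjusted p = 0.0123) and with a pseudocount of 0.1 (-1.10, adjusted p = 0.0228). At 24 h all 4 fell, by 0.87 ± 0.22 (Ffar2), 1.56 ± 0.28 (Rflnb), 1.14 ± 0.24 (Ier5l) and 1.92 ± 0.18 (Serpinb7), with adjusted p between 1.25e-08 and 0.00281, where 22.9% of tested genes fell. Without the 2 replicate 1 libraries the same 3 and 4 genes were called lower. Naive cells were not cultured and every culture held anti-CD40, so culture, time and stimulation cannot be told apart in these falls. Naive cells also had the highest sums of monocyte and macrophage markers, given above, and the part of such cells in these falls was not tested.

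In order of mean level, Ffar2 ran from IL-21 at 24 h (69.1 ± 7.64 TPM, SD, n = 3) through both cytokines at 24 h (52.5 ± 4.63) and naive cells (11.7 ± 3.49) to both at 6 h (7.71 ± 1.40), IL-4 at 24 h (5.89 ± 1.73) and 6 h (4.29 ± 1.02), IL-21 at 6 h (3.99 ± 0.478), and anti-CD40 alone at 24 h (1.08 ± 0.429) and 6 h (0.143 ± 0.0439). The ranges of neighbours overlapped from naive cells down to IL-21 at 6 h, and the first 2 and last 2 groups stood clear. For Rflnb the order was IL-21 at 24 h (25.8 ± 3.52), naive (13.1 ± 3.65), both at 24 h (5.97 ± 0.850) and 6 h (4.63 ± 0.368), IL-4 at 24 h (4.28 ± 3.30) and 6 h (3.24 ± 0.597), IL-21 at 6 h (1.19 ± 0.206), then anti-CD40 alone (0.370 ± 0.0955 at 6 h and 0.315 ± 0.179 at 24 h). Its IL-4 group at 24 h overlapped both neighbours, and the last 2 groups overlapped each other. Ier5l led with IL-21 at 24 h (35.2 ± 8.02) and 6 h (18.0 ± 4.40), which did not overlap, followed by both cytokines (5.52 ± 1.64 at 24 h and 5.03 ± 1.27 at 6 h, overlapping). Below them came anti-CD40 at 6 h (2.07 ± 0.708) and naive cells (1.33 ± 0.416), which overlapped, then IL-4 at 6 h (0.568 ± 0.193), anti-CD40 at 24 h (0.272 ± 0.0911) and IL-4 at 24 h (0.0438 ± 0.0670), each clear of the next. Serpinb7 led with IL-21 at 24 h (8.06 ± 2.19), naive cells (2.85 ± 0.513) and anti-CD40 at 6 h (1.87 ± 0.611), the last 2 overlapping, followed by IL-21 at 6 h (0.706 ± 0.0984) and anti-CD40 at 24 h (0.335 ± 0.0772). It ended with the 4 groups that held IL-4: IL-4 at 6 h (0.147 ± 0.0692) and both at 6 h (0.113 ± 0.143), which overlapped each other, both at 24 h (0.0303 ± 0.00375), which overlapped both at 6 h, and IL-4 at 24 h (0.00778 ± 0.00774).

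Across the 9 group means of log2(TPM + 1), Ffar2 and Rflnb were alike, with a Pearson r of 0.877, while the other pairs of the 4 genes lay between 0.314 (Ffar2 and Serpinb7) and 0.563 (Ffar2 and Ier5l). These and the next values describe 9 points that share libraries and scaling. Among 7952 genes with a group mean of at least 5 TPM, Ier5l was most like Id2 (r = 0.955), for an inhibitor of E protein transcription factors, and Tbx21 (0.952), for the T-box factor T-bet, then Smc3, Arpc2 and Ints8. Tbx21 was at 40.3 ± 5.89 TPM with IL-21 at 24 h and 6.40 ± 0.910 with both, and Id2 at 107 ± 3.79 and 34.3 ± 2.30 TPM, so that both were lower when IL-4 was present, as Ier5l was. Serpinb7 was most like H1fx (0.910), for a linker histone, then Nanp, Cep95, Ncapd2 and Usb1. Among the genes most like Rflnb were Ffar2 (0.877), Dnajc9, Gon7 and Zfand5. Ffar2 was nearest to Pdxp (0.941), Actr2, Mindy3, Cd53 and Cib1, whose levels varied far less: Pdxp ran from 4.56 to 8.34 TPM.

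Of 12 fatty acid receptors and transporters, 3 were tested, Ffar2, Ffar1 and Slc16a1. Ffar1, for a receptor of longer fatty acids, was at 12.1 ± 2.52 TPM in naive cells, 0.547 ± 0.303 with anti-CD40 at 6 h and 4.27 ± 1.22 at 24 h. It rose with IL-21 at 24 h both without IL-4, to 17.9 ± 5.24 TPM (1.83 ± 0.24, adjusted p = 5.72e-06), and with it, from 1.69 ± 0.617 to 12.6 ± 1.13 TPM (2.36 ± 0.24, adjusted p = 1.94e-07). It was lower with IL-4 than with anti-CD40 alone at 24 h (-0.97 ± 0.24, adjusted p = 0.00378). Ffar3, the other receptor of short-chain fatty acids, stayed at or below 0.437 TPM on average in all 9 groups. Slc16a1, for the transporter MCT1, rose with IL-21 without IL-4 (0.63 ± 0.18, adjusted p = 0.0153, not called after rescaling) and fell with it (-0.58 ± 0.18, adjusted p = 0.0273).

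Ffar1 lies 37.8 kb and Ffar3 32.4 kb from Ffar2 by their starts, and 21 protein-coding genes start within 200 kb, 8 of them tested. Over all tested genes, 21.8% were called higher with IL-21 at 24 h in the presence of IL-4 and 17.8% in its absence. Neighbours were not tested as a group. With IL-4, 4 of the 8 rose with IL-21 at 24 h: Ffar1, Cd22, for an inhibitory B cell receptor 56.6 kb away (2.30 ± 0.48, adjusted p = 0.00189, and 2.81 without the 2 replicate 1 libraries), Rbm42 (1.20 ± 0.29) and Usf2 (0.75 ± 0.26). Usf2 was not called after rescaling. Without IL-4, Ffar1, Haus5 (1.30 ± 0.32), Rbm42 (0.82 ± 0.29) and Cox6b1 (0.44 ± 0.10) rose, Cox6b1 not after rescaling, and Cd22 was called without the 2 replicate 1 libraries (1.11, adjusted p = 0.036 by limma). Near Rflnb 5 of 6 genes were tested. There 1700016K19Rik, 27.9 kb away, rose with IL-21 without IL-4 at 24 h, from 0 to 2.55 TPM on average (1.82 ± 0.24, adjusted p = 6.71e-06). With IL-4 it was at 0.639 TPM and with both cytokines at 0.331 TPM, which was not called (-0.31 ± 0.24, adjusted p = 0.352). The effects differed on the log2(TPM + 1) scale (-2.12 ± 0.34, adjusted p = 0.000416), which compresses ratios at such low levels. Vps53, 152 kb from Rflnb, also rose with IL-21 without IL-4 at 24 h (0.47 ± 0.16, adjusted p = 0.0399 by limma). With IL-4 it was not called (-0.19 ± 0.16, adjusted p = 0.412). Of 8 tested genes near Ier5l, Crat (1.99 ± 0.55) and Ptpa (1.04 ± 0.29), for an activator of PP2A, rose with IL-4 present. Without it Ptpa (0.97 ± 0.29) and Nup188 (0.98 ± 0.35, not called after rescaling) rose. The 5 genes near Serpinb7 were all clade B serpins, and none was abundant enough to be tested.

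**Figure D3:**
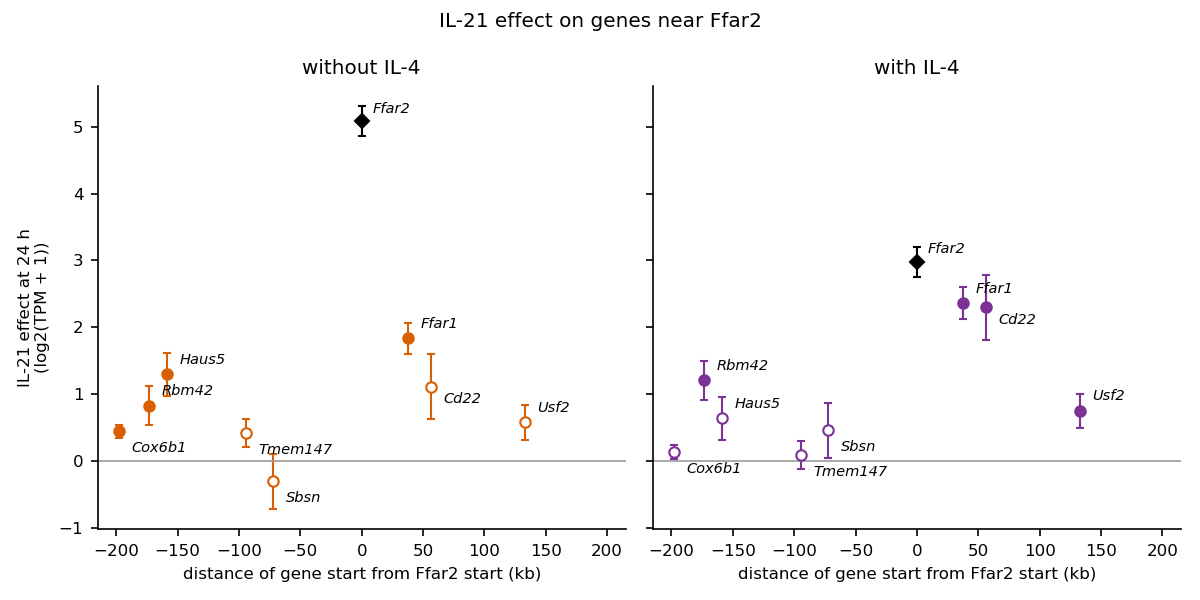
IL-21 effect at 24 h (difference in log2(TPM + 1), bars of 1 SE) on Ffar2 (diamond) and the 8 tested protein-coding genes that start within 200 kb of it (circles, filled where called by limma), against the distance between starts in kb, without IL-4 (left) and with IL-4 (right). Ffar2 has the highest value in both panels, and Ffar1 at 37.8 kb was called in both.

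Other genes of each pathway were taken from lists chosen with earlier results of these data known. Over all tested genes, 21.8% were called higher with IL-21 at 24 h in the presence of IL-4 and 17.8% in its absence, and 24.2% in either direction in each. With IL-4, 2651 genes were called higher as listed, 1212 after rescaling and 5212 without the 2 replicate 1 libraries. Of 12 tested G protein, arrestin and kinase partners of FFAR2, 5 rose and 1 fell with IL-21 and IL-4 at 24 h (median 0.67, against 0.38 over all tested genes). Grk6, for a receptor kinase, rose by 1.49 ± 0.34, Grk2 by 1.42 ± 0.48 and the G protein subunit gene Gnb2 by 1.32 ± 0.28, while Rgs1, for a brake on G protein signals, fell (-1.61 ± 0.29, adjusted p = 0.000411). Grk2 was not called after rescaling, which left 4 higher and 2 lower, and without the 2 replicate 1 libraries 8 rose and 1 fell (median 1.02). Without IL-4, 2 rose and 3 fell, among them Rgs2 (-2.29 ± 0.31, adjusted p = 9.58e-06), or 4 and 4 without those libraries.

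The list of filamins and refilin partners was near the 21.8% of all tested genes called higher with IL-21 and IL-4 at 24 h. Of 10 tested other than Rflnb, 2 rose then, Flna, for filamin A (1.59 ± 0.41, adjusted p = 0.0095), and Smad3 (0.93 ± 0.33). After rescaling, which left 9 of them tested, 1 was higher and 1 lower, and without the 2 replicate 1 libraries 6 rose. Flna itself was at 183 TPM with IL-21 alone at 24 h and 117 TPM with anti-CD40 alone (0.62 ± 0.41, adjusted p = 0.294), so filamin A transcripts were abundant in both. Without IL-4 1 fell, Filip1l (-1.05 ± 0.26), and the other 9 were not called. Rflna, for the other refilin, was at or below 0.404 TPM on average in every group.

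The IER, PP2A and HSF1 list had 5 of 14 genes higher with IL-21 and IL-4 at 24 h, where 21.8% of all tested genes were. Ppp2r2a (0.87 ± 0.29), Cdc25b (0.87 ± 0.28) and Hsph1 (0.84 ± 0.26) were among the 5. After rescaling, however, limma called 0 of 14, 0 of them with an unadjusted p under 0.05, and the median was then 0.08. Without the 2 replicate 1 libraries 9 of 14 rose, Ppp2r2a by 1.40 and Hsph1 by 1.32, and the median was 0.67. Without IL-4 4 rose and 1 fell: Hsph1, for a heat shock protein, rose by 1.27 ± 0.26 and Ier3 by 0.95 ± 0.26, and the median was 0.52. Without the 2 replicate 1 libraries 8 rose and 1 fell. Ier5, the closest relative of Ier5l on the list, moved the other way and fell (-1.61 ± 0.28, adjusted p = 0.000219), from 175 to 56.3 TPM.

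Of 22 clade B serpins 5 were tested. Serpinb1a, for an inhibitor of neutrophil serine proteases, was at 185 ± 29.5 TPM in naive cells and 14.7 ± 0.549 TPM with anti-CD40 at 24 h. It rose with IL-21 at 24 h to 187 ± 44.8 TPM (3.55 ± 0.20, adjusted p = 1.76e-11), and from 5.42 ± 1.71 to 64.9 ± 4.10 TPM with IL-4 present (3.40 ± 0.20, adjusted p = 3.5e-11). The difference between the 2 effects was not called (-0.16 ± 0.28, adjusted p = 0.791). Serpinb6b fell without IL-4 (-1.27 ± 0.27, adjusted p = 0.00122), and Serpinb6a and Serpinb9 were not called in either setting.

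**Figure D4:**
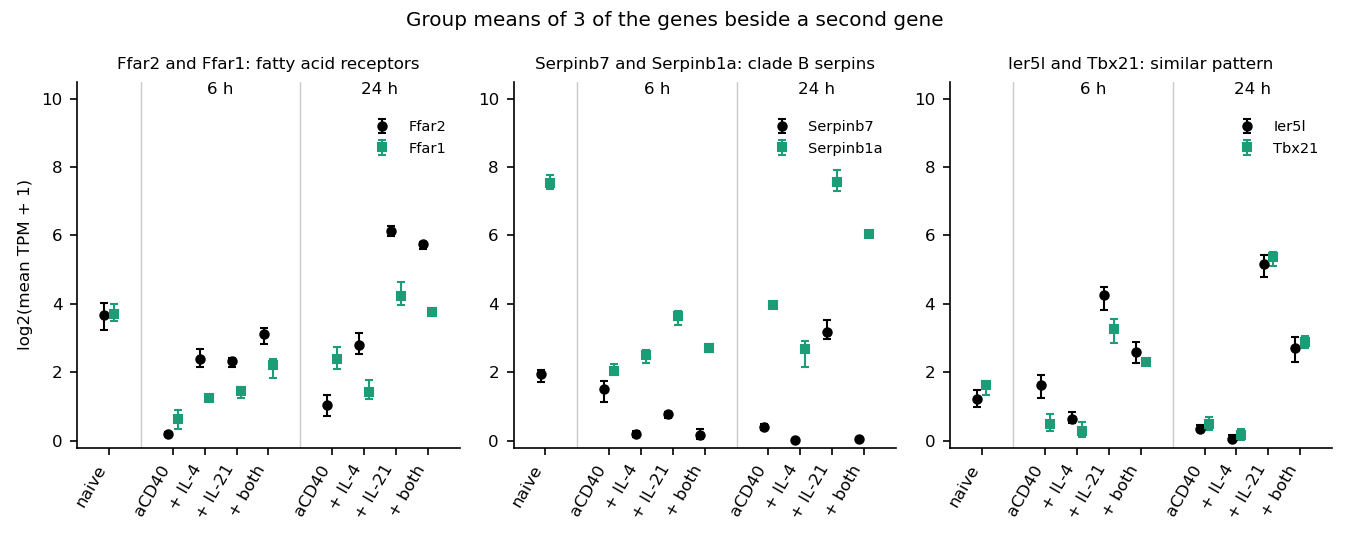
Group means as log2(mean TPM + 1), with bars from the lowest to the highest of 3 libraries, of Ffar2 beside Ffar1, Serpinb7 beside Serpinb1a and Ier5l beside Tbx21, over naive cells and the 8 cultures (aCD40, anti-CD40). Ffar1 and Serpinb1a are high with IL-21 at 24 h whether or not IL-4 is present, Serpinb7 is not, and Tbx21 was chosen for a pattern like that of Ier5l (r = 0.952).

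The receptor and signalling genes upstream were present in all conditions. Il21r was at 127 ± 24.6 TPM with anti-CD40 at 24 h and 84.2 ± 52.9 TPM with IL-4, and rose with IL-21 to 462 ± 107 TPM (1.84 ± 0.36, adjusted p = 0.000576) and 342 ± 5.99 TPM (2.18 ± 0.36, adjusted p = 0.000147, and 2.66 without the 2 replicate 1 libraries). Of the 22 JAK-STAT pathway genes 16 rose and 6 were not called with IL-21 and IL-4 at 24 h (median 1.45), where 21.8% of all tested genes rose. Without IL-4, 12 rose and 1, Stat4 (-0.57), fell (median 0.96, against 0.23 over all tested genes), where 17.8% of all tested genes rose. The feedback inhibitor gene Socs3 led both, rising by 5.46 ± 0.27 and 8.27 ± 0.27, followed with IL-4 by Bcl3 (3.19 ± 0.35), Ptpn1 (2.60 ± 0.33) and Stat3 (2.38 ± 0.34). After rescaling 13 rose with IL-4, and without the 2 replicate 1 libraries 19 did. Without IL-4, 12 rose and 3 fell after rescaling.

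Satb1, Nfil3, Gem and Muc1, 4 genes chosen from these data for an early IL-21 effect, served as a contrast in timing. The libraries behind that choice are not stated in the sources used here, so calls on these genes are a description only. With IL-4, the IL-21 effect at 6 h was called higher for 3 of these 4, where 1.25% of all tested genes were. It was called for all 4 after rescaling and without the 2 replicate 1 libraries. At 24 h it was called for all 4 (not for Gem after rescaling), where 21.8% of all tested genes were called higher. Gem lost part of the effect in between (-2.27 ± 0.22, adjusted p = 6.02e-07), where 4.24% of all tested genes were called for the change in either direction. Growth of the effect was called by limma for none of the 4, and 1 of them, Nfil3, was higher at an unadjusted p under 0.05 (0.82 ± 0.39, adjusted p = 0.253). Without the 2 replicate 1 libraries the effect on Nfil3 grew, and after rescaling Satb1 lost part of it too.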

How the data were processed

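Poly(A) RNA from mouse spleen B cells was sequenced in 27 libraries, 3 in each of 9 groups. The deposited table gives TPM per gene, and Salmon 1.9.0 and the build GRCm38 (mm10) are named in the submitters' processing notes. The annotation and other settings the authors used are not given in the sources used here. Of 35604 genes, 35254 were named by GENCODE and 10174 were at 0 in every library, and no 2 libraries held identical values. TPM keeps no depth, so no counting interval can be given.

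Values were taken as log2(TPM + 1), which understates the change of low genes, and the 12147 genes that reached 1 TPM in 3 or more libraries were fitted with limma 3.58.1 in R 4.3.3, with 1 mean per group, a trended prior and 18 residual degrees of freedom. A gene was called at a Benjamini-Hochberg adjusted p below 0.05 over all of them. The fit was tested on simulated data. The 4 genes and the gene lists were chosen with earlier results of these data known. The 4 genes were named in full, and other genes by list, by start within 200 kb or as the 5 most alike in group means, of which 1 is not reported here. Comparisons that use the libraries behind the choice, 12 of the 27, carry no p for the 4 genes. Alternatives were a pseudocount of 0.1, other filters, rescaling by median of ratios, a replicate block, a fit to the other 15 libraries and leaving libraries out, and leaving out the 2 replicate 1 libraries, and the pseudocount of 0.1 for values of the 4 genes with no test, were chosen after seeing the data.

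Same-numbered libraries deviated together in every pair for IL-21 with IL-4 at 6 h (r from 0.183 to 0.377), for IL-21 without IL-4 at 6 h (0.186 to 0.335) and for IL-4 against naive cells at 24 h (0.108 to 0.407), by the data and not by a label. The block changed no call on the 4 genes in the first and last of these, and the 4 genes carry no test in the other. Promoters and starts are from RefSeq (GRCm38.p6), where all 4 genes matched. Protein sequences were not used here.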

Additional observations from a re-analysis of the deposited data

Results flagged for a closer look

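The IL-21 effect on Ffar2 in the presence of IL-4 differed between the times. It was larger at 24 h than at 6 h by 2.26 ± 0.31 on the log2(TPM + 1) scale (adjusted p = 9.48e-05, limma), and between 2.11 and 2.46 with any 1 of the 12 libraries left out.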

How the results depend on the processing

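The calls that Ffar2 and Ier5l rose with IL-21 and IL-4 at 24 h, that Ier5l rose at 6 h and that the Ffar2 effect grew held under every alternative run. Of 120 alternative values behind the main comparisons, other than those leaving out 1 library, 108 stayed the same. These were values of the 4 genes that kept their direction and side of the threshold, and counts of called genes of similar size. Of the rest, 7 were counts of called genes that moved, 4 were gene values that newly passed the threshold and 1 was a gene value that reversed. With a pseudocount of 0.1 the change of the Ier5l effect was 2.39, and the construction of that scale gives more weight to values near 0. After rescaling, Ffar2 at 6 h was at 0.66, the change of the Rflnb effect was -0.23 and Ier5l over time with both cytokines was at -0.032, and 546 genes were called at 6 h (308 as listed) and 806 for the change (515 as listed). Rescaling moved the share of calls that were higher by over 10 percentage points for the change (86.4% to 59.4%), for time with both cytokines (68.7% to 54.9%), for time with IL-4 (34.6% to 54%) and for IL-21 without IL-4 at 24 h (73.8% to 54.8%). The same held for IL-21 without IL-4 at 6 h (61.4% to 50.4%) and for IL-21 with IL-4 at 24 h (90.1% to 46.3%). The fit to 15 libraries called 1750 genes at 24 h and 257 for the change. Without the replicate 1 libraries of naive cells and of IL-4 at 24 h, Rflnb at 24 h was at 1.04, Ffar2 at 6 h at 0.72 and Rflnb over time with IL-4 at -0.32, with 5890 genes called at 24 h, 561 at 6 h, 3912 for the change and 5089 for time with IL-4 (3091 with them). Apart from the pseudocount, the cause was not tested.

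With 1 library left out in turn, calls ranged from 959 to 5632 at 24 h, from 224 to 249 at 6 h, from 260 to 3406 for the change and from 1844 to 4819 for time with IL-4, and the highest count was without replicate 1 of IL-4 at 24 h except at 6 h. Rflnb at 24 h ranged from 0.26 to 1.04 and its change from -0.16 to 0.63. Serpinb7 at 6 h ranged from -0.15 to 0.0040, Ier5l over time with both cytokines from -0.082 to 0.28 and Rflnb over time with IL-4 from -0.32 to 0.46.

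With the replicate number as a block, Ier5l was called for time with IL-4 (-0.58, adjusted p = 0.0377) and against naive cells at 6 h (-0.56, adjusted p = 0.032), and no other call on the 4 genes changed. In neither comparison did every same-numbered pair correlate above 0.1, so the libraries there share only a number. For IL-21 with IL-4 at 24 h the correlations were between -0.0051 and 0.0702.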
